A study of Homo sapiens with 13 samples.

Results

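The integrated stress response genes described here are ATF4, DDIT3, DDIT4, TRIB3, ASNS, CHAC1, SESN2, PSAT1, PHGDH and VLDLR, 10 of the 61541 human genes in the tables, chosen by gene name and found in both experiments. The 13 libraries came from RUES2 human embryonic stem cells that carry SMAD4 fused to GFP, and all were grown in mTeSR1, a medium that maintains pluripotency, with ROCK inhibitor. In the time series, cells received 100 ng/mL BMP4 with 5 µM IWP2 and ROCK inhibitor, and RNA was taken at 0 h (2 libraries) and at 4, 12, 20, 28 and 42 h (1 library each). The labels of the 0 h pair name the same treatment. In the dose response, all at 5 h with 1 library per condition, the same BMP4, IWP2 and ROCK inhibitor were combined with LDN-193189 (LDN) at 0, 10, 30, 100 or 300 nM, and a further library came from cells labelled with mTeSR medium alone, called untreated. BMP4 is the ligand that drives SMAD4 into the nucleus, LDN inhibits the BMP type I receptors, and IWP2 blocks the secretion of Wnt ligands, so more LDN means less BMP signal. Every library with LDN also had BMP4, so the loss of BMP signal and any other effect of the compound cannot be told apart. The untreated library lacks both BMP4 and IWP2, and its treatment label does not name ROCK inhibitor.

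The integrated stress response starts when kinases that sense amino acid shortage, unfolded protein, heme deficiency or double-stranded RNA phosphorylate the translation factor eIF2. General translation then falls while the ATF4 mRNA is translated more efficiently, and the ATF4 protein turns on genes for amino acid synthesis, amino acid import, glutathione breakdown and growth arrest. ATF4 is thus controlled largely at the level of translation, and the values here are mRNA levels only. No eIF2 phosphorylation and no ATF4 protein was measured in these libraries.

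ATF4 often binds with a C/EBP partner at an element that reads TGATGNAA. This 8-base motif was looked for on both strands of the 250 bases before each RefSeq gene start (GRCh38.p14). All 10 genes had an entry, and 2 of them, ASNS and CHAC1, held the motif. Among all genes with promoter entries 3.89% of 27305 held it in at least 1 entry, and 12 of the 68 genes of the related pathway lists that had an entry did. The 2 sequences are shown because they hold it, and because ASNS and CHAC1 moved in opposite directions with LDN. They are written 5′ to 3′ along the gene's own strand, with the motif in capitals.
ASNS: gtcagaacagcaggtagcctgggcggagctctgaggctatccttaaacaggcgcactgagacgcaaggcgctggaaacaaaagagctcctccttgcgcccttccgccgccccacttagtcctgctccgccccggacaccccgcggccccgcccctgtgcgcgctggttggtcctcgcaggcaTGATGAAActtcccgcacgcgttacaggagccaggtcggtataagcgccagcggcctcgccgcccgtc
CHAC1: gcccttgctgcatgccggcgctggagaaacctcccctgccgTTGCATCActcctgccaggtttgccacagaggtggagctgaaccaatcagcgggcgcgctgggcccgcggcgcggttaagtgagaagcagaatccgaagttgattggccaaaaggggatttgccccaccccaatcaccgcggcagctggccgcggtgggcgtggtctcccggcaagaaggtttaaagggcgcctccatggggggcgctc
The ASNS stretch lies at chr7:97872409-97872658 on the minus strand and carries TGATGAAA 68 bases before the start, read along the gene. The CHAC1 stretch lies at chr15:40953221-40953470 on the plus strand and carries TTGCATCA, the motif on the opposite strand, 209 bases before the start. In the GENCODE 44 annotation the outermost ends of both genes, 97872542 for ASNS and 40952962 for CHAC1, lie upstream of these RefSeq starts, so parts of the stretches are transcribed in some annotated transcripts. A match of letters does not show that a factor binds there.

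Sequencing depth was 37957385 to 71333471 counts per library in the time series and 15600931 to 33989998 in the dose response, with the untreated library lowest. Mitochondrial genes took 7.60% of the counts in 0 h replicate 1 and 7.89% in the untreated library, against 2.01 to 4.49% in the other 11 libraries, so both reference conditions contain a library that stands apart. All 5 markers of pluripotent cells reached at least 1 CPM (counts scaled by the library total) in every library. Their sum nevertheless fell from 6563 and 7177 CPM at 0 h to 3602 CPM at 42 h. NANOG went from 146 and 116 to 1.08 CPM, SOX2 from 389 and 375 to 11.6 CPM. DNMT3B went from 2009 and 1999 to 638 CPM and LIN28A from 3017 and 2966 to 1806 CPM. POU5F1, at 1145 CPM, stayed within its 0 h pair (1003 and 1721 CPM). The summed level of 5 amnion markers was 2.58 to 2.59 CPM at 0 h and 3909 CPM at 42 h. With BMP4 at 5 h the amnion sum ranged from 3.62 to 124 CPM, and GATA3, an early BMP target, fell from 73.2 CPM at 0 nM LDN to 1.116 CPM at 300 nM. Over all 13 libraries, 4 primitive streak markers summed to 1.28 to 5.26 CPM, highest at 20 h, and 3 neural markers to 0.294 to 1.63 CPM. EOMES, a streak marker, was at 0.211 and 0.308 CPM at 0 h and at 1.39, 2.72, 3.52, 1.81 and 0.294 CPM at the later times. Of 4 fibroblast markers 2 were present, and the sums ran from 138 CPM at 28 h to 283 CPM at 4 h. The part of these markers in the results was not tested. In bulk RNA, a change in the mixture of cells and a change of RNA per cell cannot be told apart.

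Per gene length, PHGDH and ATF4 were the most abundant members, with mean levels of 376 and 354 FPKM over the time series, and DDIT3 was the least abundant, at 3.08 FPKM. ASNS (123 FPKM) and PSAT1 (107 FPKM) came next, and CHAC1, DDIT4, TRIB3, SESN2 and VLDLR had means between 10.7 and 20.2 FPKM. PHGDH and ATF4 were also highest and DDIT3 lowest in the dose response. All 10 genes passed the low-count filter (mean CPM of 1 or more) in both experiments. Levels below are CPM unless stated otherwise.

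With LDN at 5 h, 6 of the 10 genes rose and ASNS fell. The largest rise was that of CHAC1, which encodes an enzyme that breaks down glutathione, followed by SESN2, DDIT4 and TRIB3. The LDN trend is the slope per dose step (0, 10, 30, 100 and 300 nM taken as equal steps) in an edgeR quasi-likelihood fit, with its error taken from the scatter of the 5 libraries about the line and a Benjamini-Hochberg adjusted p under 0.05 as the call. Over all 14907 genes tested, 10.4% were called higher and 10.9% lower with LDN. The median slope of the 10 genes was 0.07 log2 per step, against 0.00 over all genes. At 300 nM, 9 of the 10 genes had their highest level of the 5 doses, as did 24.8% of all genes, and ASNS had its highest level at 0 nM, as did 34.2%.

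**Figure D1:**
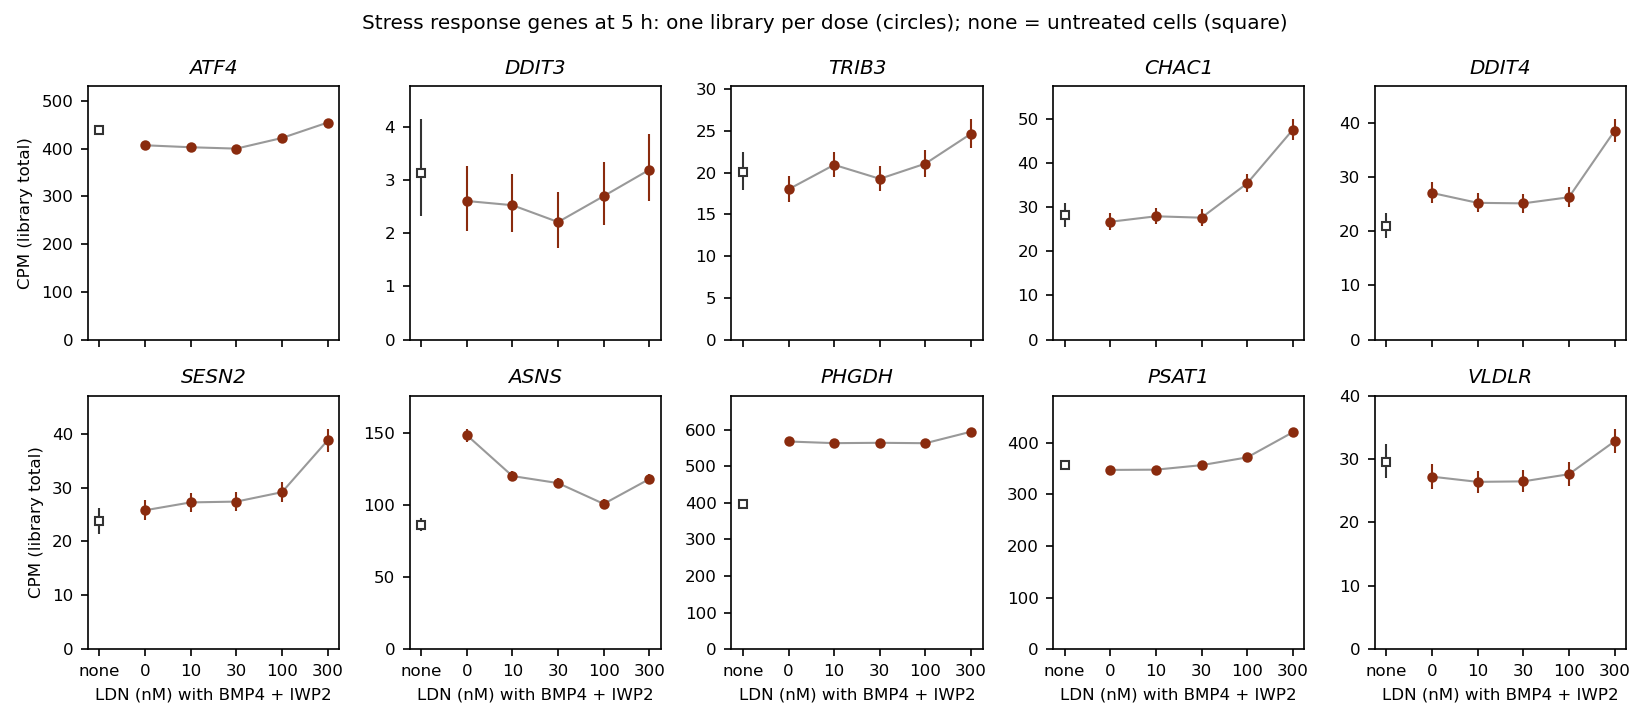
Level of each gene at 5 h in CPM on the library total (vertical axes from 0) against LDN dose in nM (horizontal axis, equal spacing), 1 library per condition; circles are cells with BMP4 and IWP2, the square is untreated cells, and bars are 95% counting intervals. CHAC1 climbs from 26.7 to 47.5 CPM, most other genes rise mainly between 100 and 300 nM, and ASNS is highest at 0 nM LDN.

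ATF4, the transcription factor at the centre of the response, varied little with dose. Its level was 407, 403, 400.3, 423 and 455 CPM in order of rising LDN dose, and 440.3 CPM in untreated cells. The first 3 doses lay close together and the upper 2 above them, a ratio of 1.117 between 300 and 0 nM. The slope was 0.04 ± 0.01 log2 per step (SE, n = 5 libraries; edgeR adjusted p = 0.0200).

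DDIT3 encodes CHOP, a bZIP factor induced downstream of ATF4 under prolonged stress. It gave 2.61, 2.53, 2.21, 2.70 and 3.20 CPM from 0 to 300 nM and 3.14 CPM in untreated cells. At 48 to 152 counts per library over all 13, its slope of 0.08 ± 0.06 log2 per step was not called (edgeR adjusted p = 0.417). DDIT3 overlaps MARS1 on the opposite strand by 982 bases, a gene at up to 346 CPM, and also MBD6, and whether the counting used strand is not given in the sources used here, so its values are uncertain.

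TRIB3, a pseudokinase that restrains ATF4 and AKT, and CHAC1 both rose. TRIB3 gave 18.0, 20.9, 19.2, 21.1 and 24.6 CPM in order of dose, with 20.1 CPM in untreated cells, and its slope was 0.10 ± 0.03 log2 per step (edgeR adjusted p = 0.0189). CHAC1 gave 26.7, 27.9, 27.6, 35.3 and 47.5 CPM at the same doses and 28.1 CPM in untreated cells. The first 3 doses lay close to the untreated library, and its level at 300 nM was 1.78 times that at 0 nM. The CHAC1 slope was 0.21 ± 0.03 log2 per step (edgeR adjusted p = 0.000400).

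DDIT4 (REDD1) and SESN2 (sestrin 2) both restrain the growth kinase mTORC1. DDIT4 stayed between 25.2 and 27.1 CPM from 0 to 100 nM LDN and reached 38.6 CPM at 300 nM, against 21.0 CPM in untreated cells. Its rise thus lay in the 300 nM library alone (slope 0.12 ± 0.04 log2 per step, edgeR adjusted p = 0.0421), and neither DESeq2 (0.12) nor limma on FPKM (0.11) called it. SESN2 gave 25.8, 27.2, 27.4 and 29.1 CPM from 0 to 100 nM and 38.8 CPM at 300 nM, with 23.7 CPM in untreated cells. The SESN2 slope was 0.14 ± 0.03 log2 per step (edgeR adjusted p = 0.00328), and the ratio of 300 to 0 nM was 1.504.

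ASNS, asparagine synthetase, went the other way. It gave 148 CPM with BMP4 and no LDN, then 120, 115, 101 and 118 CPM as the dose rose, and 86.3 CPM in untreated cells. The untreated library was the lowest and the one with the full BMP signal the highest, and the level at 300 nM lay above that at 100 nM. The slope was -0.09 ± 0.03 log2 per step (edgeR adjusted p = 0.0336). A lncRNA, ENSG00000284707, lies over ASNS on the same strand and had at most 11.5% of the ASNS level in any library.

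PSAT1 and PHGDH are enzymes of serine synthesis from glycolytic intermediates, PHGDH taking the first step and PSAT1 the next. PSAT1 rose with LDN at every step, from 347 CPM at 0 nM through 348, 357 and 372 to 420.4 CPM at 300 nM (slope 0.07 ± 0.01 log2 per step, edgeR adjusted p = 0.00191), and was at 356 CPM in untreated cells. PHGDH stayed between 563 and 595 CPM at all 5 doses and was not called (0.02 ± 0.01 log2 per step, edgeR adjusted p = 0.237). VLDLR, a lipoprotein receptor that stress kinase signalling can raise, gave 26.4 to 27.6 CPM from 0 to 100 nM and 32.8 CPM at 300 nM, and its slope of 0.07 ± 0.02 log2 per step was not called (edgeR adjusted p = 0.0633).

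These calls leaned on the library with 300 nM LDN. Without it, CHAC1 rose and ASNS fell, no other member was called, and the DDIT4 slope was -0.00777 log2 per step. Of the other losses, ASNS was no longer called without the 0 nM library (slope -0.02) or the 100 nM library (-0.07), TRIB3 without the 0 nM library (0.09), and ATF4 (0.04) and DDIT4 (0.11) without the 10 nM library, while VLDLR became called without the 0 nM library (0.10). By method, limma on FPKM called CHAC1 and PSAT1 higher and no other member, and ASNS was called by neither DESeq2 nor limma. The TMM factors of the 5 libraries ran from 1.005 to 1.016, and mitochondrial genes took 4.22 to 4.49% of their counts, highest at 300 nM. The part of these shares in the slopes was not tested.

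Against untreated cells, 1 of the 10 members passed a fold of 1.5 with BMP4, IWP2 and no LDN. A fold of 1.5 was reached upward by 16.0% and downward by 5.85% of the 14877 genes compared, so this share was not above the background. The member was ASNS, whose level at 0 nM LDN was 1.72 times that of the untreated library (95% counting interval 1.62 to 1.83). PHGDH was 1.43 times higher (1.39 to 1.48). At 300 nM LDN over untreated, 4 members exceeded a fold of 1.5, where 9.5% of all genes did so upward and 3.27% downward. With TMM factors or FPKM the count was 3, without PHGDH. The 4 were DDIT4 at 1.84 (1.62 to 2.08), CHAC1 at 1.69 (1.52 to 1.88), SESN2 at 1.63 (1.45 to 1.84) and PHGDH at 1.502 (1.46 to 1.55), while ASNS was at 1.37 (1.28 to 1.46). PHGDH was thus higher in all 5 BMP4 libraries (563 to 595 CPM) than in untreated cells (396 CPM), whatever the LDN dose. With 1 library on each side there is no test, the intervals cover counting error only, and the untreated library had the lower depth and higher mitochondrial share given above.

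Over the time series, DDIT4, SESN2 and TRIB3 were highest at 42 h, ASNS and CHAC1 peaked at 28 h, and PSAT1 was below the 0 h pair at every later time, at 0.244 of its 0 h level at 42 h. Each time was compared with the 0 h pair by edgeR. Each later time has 1 library, which is assumed to vary as the 0 h pair does, and whether that pair came from separate cultures is not stated. No later time has a library without BMP4 and IWP2, so their effect and that of time in culture cannot be told apart. At 4 h and at 12 h, 0 members were called in the edgeR test, DESeq2 and limma, against 4.39% of all 15976 genes higher and 0.632% lower at 4 h, and 7.04% higher and 2.64% lower at 12 h. At an unadjusted p under 0.05 there were 0 members at 4 h and, at 12 h, 1 higher (ASNS) and 1 lower (PSAT1). Of all 15976 genes, 1396 were higher and 383 lower at 4 h by that threshold, and 1780 and 852 at 12 h.

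**Figure D2:**
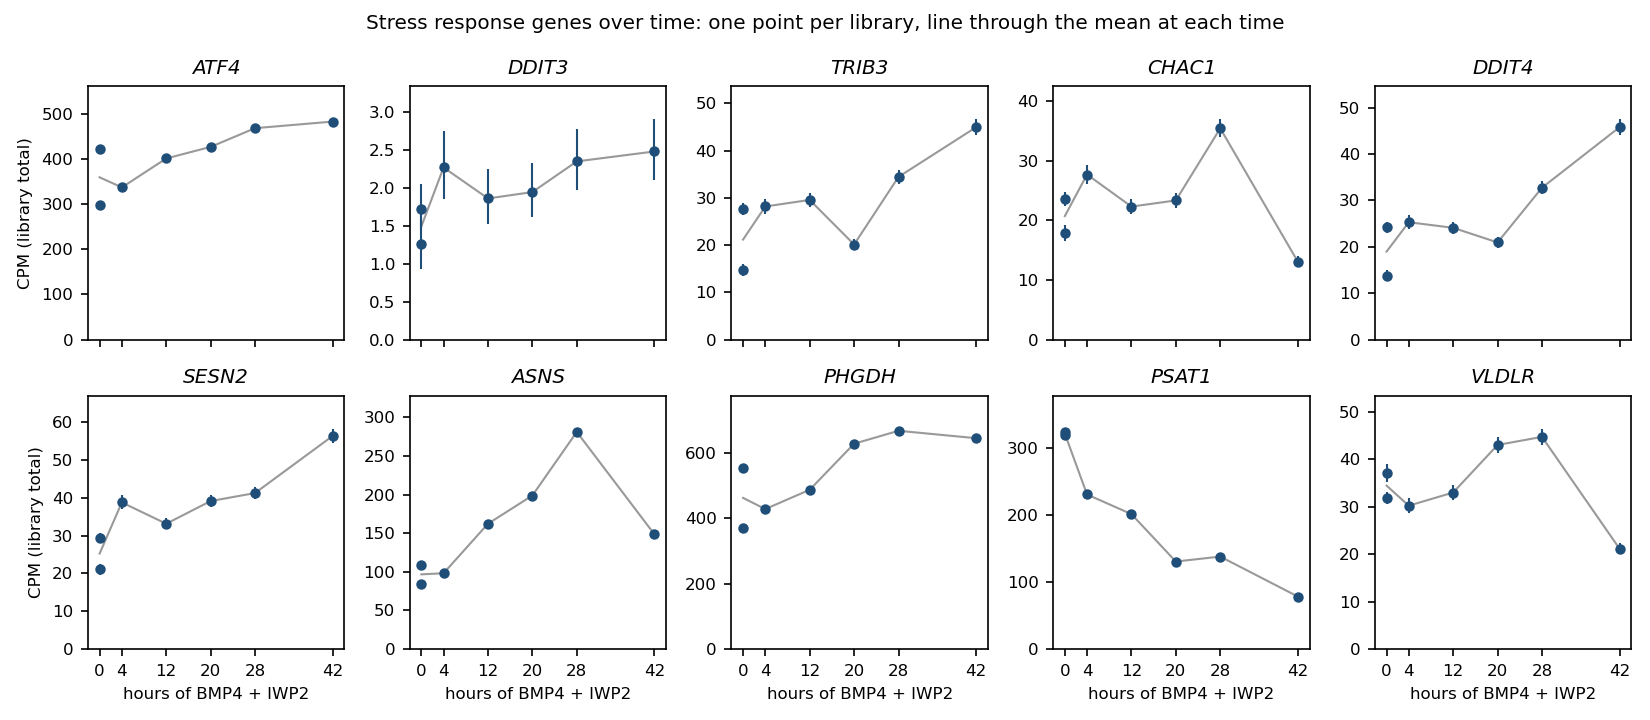
Level of each gene in CPM on the library total (vertical axes from 0) against hours of BMP4 with IWP2 (horizontal axis); each point is 1 library, bars are 95% counting intervals, and the line joins the means at each time. DDIT4, TRIB3 and SESN2 are highest at 42 h, ASNS at 28 h, PSAT1 falls from 324 and 320 to 78.5 CPM, and the 0 h pair lies far apart for TRIB3 and DDIT4.

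The 0 h pair itself differed. TRIB3 was at 14.7 CPM in replicate 1 and 27.7 CPM in replicate 2, a ratio of 1.88, and DDIT4 was at 13.8 and 24.2 CPM, a ratio of 1.76. In all, 8 of the 10 genes were lower in replicate 1, the library with the higher mitochondrial share, as were 47.5% of all genes, and 7 of the 10 had their lowest level of the 7 libraries there, as did 21.0% of all genes. PSAT1 hardly differed, at 324 and 320 CPM. The part of the mitochondrial share in this difference was not tested.

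At 20 h, ASNS was higher and PSAT1 lower than at 0 h, where 12.4% of all genes were called higher and 6.01% lower. At 28 h, ASNS, DDIT4 and CHAC1 were higher and PSAT1 lower, where 13.3% and 7.04% of all genes were. The calls of DDIT4 and CHAC1 at 28 h did not hold in DESeq2, in limma, with library totals or without the filter. At 42 h, DDIT4, SESN2, TRIB3 and ASNS were higher and PSAT1 lower, where 19.9% and 17.8% of all genes were. The median log2 fold of the 10 genes at 42 h was 0.79, against -0.01 over all genes.

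ATF4 mRNA was at 297 and 421 CPM at 0 h, then at 337, 401, 426, 468 and 482 CPM at 4, 12, 20, 28 and 42 h. The later values from 20 h on lay above both 0 h libraries, but the gap between that pair was as wide as the rise, and the 42 h difference of 0.66 ± 0.33 log2 was not called (edgeR adjusted p = 0.107). DDIT3 went from 1.26 and 1.72 CPM at 0 h to between 1.86 and 2.48 CPM at the later times, above both 0 h libraries at all 5, with a 42 h difference of 0.96 ± 0.43 log2 (edgeR adjusted p = 0.0689).

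TRIB3 was at 28.2, 29.6, 20.1, 34.4 and 45.0 CPM at the 5 later times, so that its 20 h level lay within the 0 h pair and its 42 h level well above it. The 42 h difference was 1.32 ± 0.30 log2 (edgeR adjusted p = 7.67e-05), and it was 0.94 against 0 h replicate 2 alone and 1.84 against replicate 1 alone. Limma on FPKM did not call TRIB3 at 42 h (1.05). CHAC1 was at 17.8 and 23.6 CPM at 0 h and at 27.7, 22.3, 23.3, 35.4 and 13.02 CPM afterwards. It thus had both its highest and its lowest level in the last 2 libraries, 0.84 ± 0.30 log2 above 0 h at 28 h (edgeR adjusted p = 0.0287) and -0.43 ± 0.32 log2 at 42 h, where it was not called (edgeR adjusted p = 0.297).

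DDIT4 followed with 25.3, 24.1, 20.9, 32.7 and 45.8 CPM at 4 to 42 h. It was above both 0 h libraries at 28 h (0.86 ± 0.30 log2, edgeR adjusted p = 0.0278) and at 42 h (1.51 ± 0.30 log2, edgeR adjusted p = 4.10e-06), the former 0.51 and the latter 1.16 against replicate 2 alone, and 1.31 and 1.96 against replicate 1 alone. At 4 h its difference was -0.01 against replicate 2 and 0.78 against replicate 1. SESN2 went from 21.0 and 29.5 CPM at 0 h to 38.8, 33.1, 39.1, 41.3 and 56.4 CPM, above both 0 h libraries at all 5 later times, and was called at 42 h (1.39 ± 0.31 log2, edgeR adjusted p = 3.99e-05).

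ASNS was at 84.1 and 109 CPM at 0 h and at 98.2, 162, 199, 281 and 149 CPM afterwards. Its level rose from 4 to 28 h and at 42 h was 0.528 of that at 28 h. The differences from 0 h were 1.08 ± 0.32 log2 at 20 h (edgeR adjusted p = 0.00718), 1.61 ± 0.32 at 28 h (edgeR adjusted p = 7.03e-06) and 0.86 ± 0.33 at 42 h (edgeR adjusted p = 0.0258). The call at 42 h did not hold with scaling on library totals (0.62) or with limma on FPKM (0.63), and limma did not call ASNS at 20 h either (1.02).

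PSAT1 gave 324 and 320 CPM at 0 h, then 231, 202, 131, 138 and 78.5 CPM. All 5 later libraries lay below the 0 h pair, and the differences were -1.26 ± 0.36 log2 at 20 h (edgeR adjusted p = 0.00348), -1.15 ± 0.35 at 28 h (edgeR adjusted p = 0.00783) and -1.80 ± 0.37 at 42 h (edgeR adjusted p = 6.90e-06). PHGDH, the enzyme before it in the pathway, gave 371 and 553 CPM at 0 h, then 428, 487, 628, 667 and 644 CPM, and was not called at 42 h (0.72 ± 0.34 log2, edgeR adjusted p = 0.0805). The ratio of PHGDH to PSAT1 in FPKM was 1.65 and 2.33 at 0 h and 2.5, 3.21, 6.20, 6.35 and 10.7 at the later times, while with LDN it moved from 2.299 at 0 nM to 1.91 at 300 nM and was 1.53 in untreated cells. The mRNA levels of these 2 enzymes of the same route thus parted over 42 h, with calls against 0 h for PSAT1 but not for PHGDH.

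VLDLR was at 37.1 and 31.9 CPM at 0 h and at 30.2, 33.0, 43.0, 44.7 and 21.1 CPM afterwards. Like CHAC1 it was highest at 28 h and lowest at 42 h, where its difference of -0.47 ± 0.32 log2 was not called (edgeR adjusted p = 0.263).

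A straight line over the hours gave 6 members higher with time (ATF4, DDIT4, TRIB3, ASNS, SESN2 and PHGDH) and PSAT1 lower, where 19.2% of all genes were called higher and 17.5% lower in the edgeR test. PSAT1 fell by 0.041 log2 per hour (edgeR adjusted p = 0.000944). DDIT4 and SESN2 were the 2 rising members still called without 0 h replicate 1. There were also 2 without the 28 h library, 3 without the 4 h library and 1 without the 42 h library. With scaling on library totals, which lowers the median of all genes at 42 h to -0.25 log2, 2 members rose over the hours, and at 42 h ASNS lost its call.

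**Figure D3:**
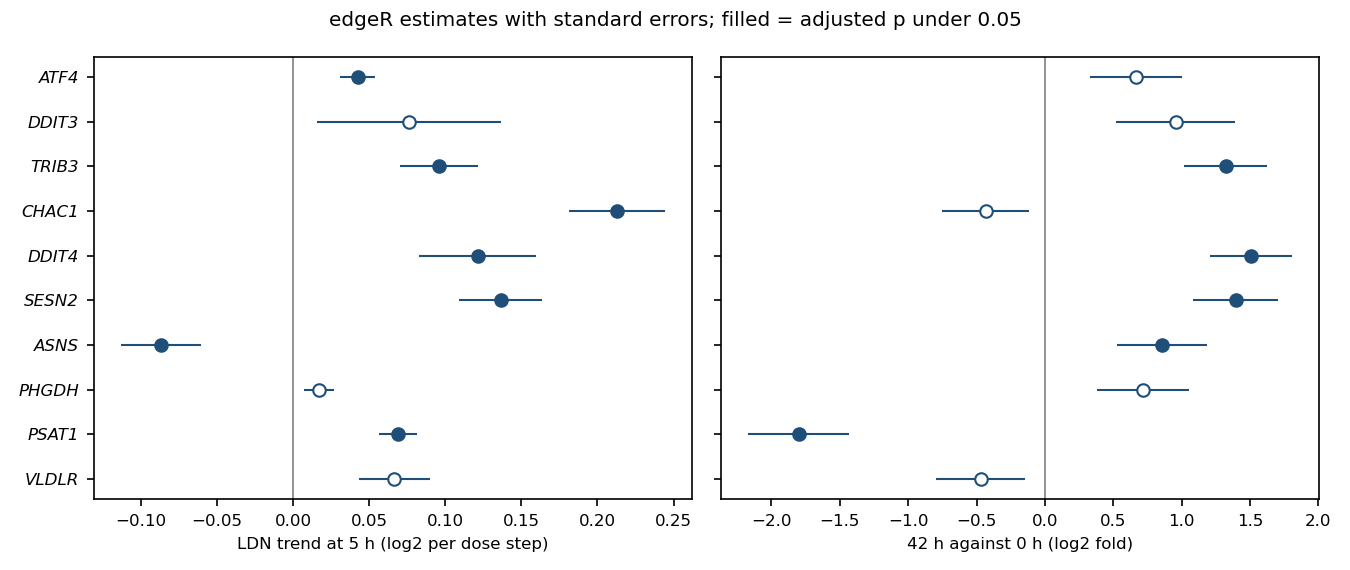
Estimates for each gene with their standard errors (bars), the LDN trend in log2 per dose step on the left and 42 h against 0 h in log2 fold on the right; filled points have an edgeR adjusted p under 0.05. CHAC1 has the highest LDN slope (0.21) without a call at 42 h, ASNS is negative on the left and positive on the right, and PSAT1 is positive on the left and negative on the right.

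Set side by side, DDIT4, SESN2 and TRIB3 rose with LDN at 5 h and were also higher at 42 h of the time series than at 0 h. ASNS fell with LDN and was higher at 20, 28 and 42 h, and PSAT1 rose with LDN and was lower at 20, 28 and 42 h. The early points of the 2 experiments differed. At 4 h against 0 h, ASNS was at -0.06 log2 and PSAT1 at -0.56 log2. At 5 h with BMP4 and no LDN, ASNS was 1.72 times and PSAT1 0.975 times the untreated library. The experiments share no library, and they differ in RNA kit and in ribosomal RNA depletion (time series) or poly(A) selection (dose response), so levels were not compared between them.

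The profile of each member was also set against 9580 other genes that averaged 10 CPM or more in both experiments (9581 for DDIT3), by the root mean square difference of log2(CPM + 1) over the 13 libraries after centring within each experiment. DDIT4 and TRIB3 were each other's closest gene (0.151 log2), and SESN2 was second for DDIT4 (0.157). CHAC1 was closest to STC2 (0.222), a secreted glycoprotein in the list of ATF4 targets, with NRARP almost as close (0.232). This closest distance was the largest of any member, against a root mean square of 0.356 for CHAC1 about its own means. The closest genes of the others were SLC25A5 for ATF4 (0.0614), NAB2 for ASNS (0.164), HDAC10 for SESN2 (0.138), LYAR for PSAT1 (0.0859), MAGED2 for PHGDH (0.0778), DIPK2A for VLDLR (0.0683) and the pseudogene PPIAP22 for DDIT3 (0.102). A member that moved little finds a close neighbour easily, so these distances are a description.

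Upstream of ATF4, the 12 genes for the eIF2 kinases, eIF2 itself, its phosphatase subunits and eIF2B stayed mostly uncalled. With LDN 1 rose and 1 fell, where 10.4% of all genes rose and 10.9% fell, so these shares are near the background. EIF2AK4 (GCN2, the sensor of uncharged tRNA) went from 121 to 143 CPM between 0 and 300 nM (0.07 ± 0.01 log2 per step, edgeR adjusted p = 0.000807) and EIF2AK3 (PERK, the sensor of unfolded protein in the endoplasmic reticulum) from 40.2 to 31.8 CPM (-0.07 ± 0.02, edgeR adjusted p = 0.0320). The EIF2AK3 call was lost without the 0, 10 or 300 nM library and in DESeq2, and limma on FPKM called neither gene. At 42 h 1 was higher and 1 lower, where 19.9% and 17.8% of all genes were. PPP1R15A (GADD34), the stress-induced phosphatase subunit that reverses eIF2 phosphorylation, was higher, from 14.9 ± 2.6 CPM (SD, n = 2) to 36.2 CPM (1.52 ± 0.30 log2, edgeR adjusted p = 3.28e-06). EIF2AK2 (PKR) was lower, from 113 ± 17 to 44.3 CPM (-1.12 ± 0.35 log2, edgeR adjusted p = 0.00508).

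Of 7 bZIP partners and relatives of ATF4, NUPR1 was below the filter. With LDN 4 of the 6 tested rose and 1 fell, against 10.4% and 10.9% of all genes. ATF3, a repressor induced by ATF4, gave 10.2, 11.9, 12.9, 14.4 and 17.9 CPM from 0 to 300 nM, against 17.3 CPM in untreated cells (0.20 ± 0.03 log2 per step, edgeR adjusted p = 0.000152). ATF5 rose from 26.2 to 32.8 CPM and CEBPG, a C/EBP partner of ATF4, from 59.1 to 68.2 CPM, while JDP2 fell from 34.4 to 24.5 CPM. At 42 h 3 were higher, against 19.9% of all genes. These were JDP2 from 9.58 ± 2.78 to 119.9 CPM (3.88 ± 0.32 log2, edgeR adjusted p = 1.46e-31), CEBPB from 28.9 ± 6.5 to 94.0 CPM, and NFE2L2, which drives antioxidant genes, from 33.6 ± 4.7 to 55.9 CPM. Without the 300 nM library, the LDN calls here were ATF3 higher and JDP2 lower, and the CEBPG call was also lost without the 10 nM library. Limma on FPKM called ATF3 and JDP2 with LDN and did not call NFE2L2 at 42 h.

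Among 9 amino acid transporters, 4 rose and 2 fell with LDN, against 10.4% and 10.9% of all genes. SLC1A5, a glutamine carrier, went from 338 to 441 CPM (0.09 ± 0.01 log2 per step, edgeR adjusted p = 0.000287), and SLC7A1 and SLC3A2 rose too. SLC7A3, a carrier of cationic amino acids, fell at every step through 210.3, 186, 158, 135 and 119 CPM (-0.21 ± 0.01, edgeR adjusted p = 6.39e-08), and SLC38A2, a carrier of small neutral amino acids, fell from 719 to 494 CPM. In untreated cells SLC7A3 was at 146 CPM, above the 100 and 300 nM libraries, and SLC38A2 at 465 CPM. With the untreated library as a sixth step, SLC7A1 and SLC1A5 were called higher and SLC38A2 lower, while SLC7A3 was not called. At 42 h 3 were higher and 2 lower, against 19.9% and 17.8% of all genes. SLC7A3 was higher, at 559.8 against 149 ± 27 CPM, and so were the heterodimer partners SLC7A5 (3351 against 983 ± 20 CPM) and SLC3A2 (808 against 321 ± 73 CPM), which carry large neutral amino acids together. SLC7A11, which imports cystine for glutathione synthesis, was lower, at 27.4 against 92.2 ± 26.6 CPM, as was SLC7A1. Without the 300 nM library, SLC1A5 was the transporter called higher and SLC7A11, SLC38A2 and SLC7A3 were called lower with LDN, and without the 100 nM library 2 were called higher, SLC3A2 no longer among them. With library totals 2 rose with LDN and with limma on FPKM 1, SLC1A5 in both cases, and SLC7A1 was not called at 42 h without the filter.

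Of 12 further genes of serine, one-carbon and amino acid synthesis, 8 rose with LDN and 0 fell in the edgeR test, against 10.4% and 10.9% of all genes, but limma on FPKM called 0 of the 12 higher and the fit with the untreated library as a sixth step called 1. None fell at an unadjusted p under 0.05. GPT2, an alanine aminotransferase, went from 127 to 171 CPM (0.10 ± 0.02 log2 per step, edgeR adjusted p = 0.000734), MTHFD1L, which makes formate in mitochondria, from 83.8 to 99.5 CPM, and PYCR1, which makes proline, from 128 to 149 CPM. Without the 300 nM library 3 rose and without the 0 nM library 5, PYCR1 in neither case. At 42 h 1 was higher and 1 lower, against 19.9% and 17.8% of all genes: GOT1 at 86.0 against 43.2 ± 6.7 CPM, a call lost in limma, and ALDH1L2, which oxidizes folate-bound one-carbon units in mitochondria, at 0.801 against 6.70 ± 1.90 CPM (-2.82 ± 0.45 log2, edgeR adjusted p = 5.10e-09).

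All 12 cytosolic aminoacyl-tRNA synthetases, which charge tRNAs and include many ATF4 targets, were tested. With LDN 3 rose by small amounts, where 10.4% of all genes rose: TARS1 from 503 to 543 CPM, WARS1 from 174 to 192 CPM and CARS1 from 87.4 to 102 CPM, and 0 fell in the edgeR test or at an unadjusted p under 0.05; without the 10, the 100 or the 300 nM library none was called, and without the 0 nM library 7 were. With library totals and in limma 0 were called, and 2 were in DESeq2, without WARS1. At 42 h TARS1 was lower, at 149 against 365 ± 16 CPM, and 0 were called higher in the edgeR test, DESeq2 and limma, with 0 also at an unadjusted p under 0.05.

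Of 10 secreted and growth-control targets of ATF4, 8 passed the filter at 5 h and 9 in the time series. With LDN 5 rose, against 10.4% of all genes. STC2 went through 64.4, 73.4, 75.7, 86.9 and 120.3 CPM, against 73.9 CPM in untreated cells (0.21 ± 0.02 log2 per step, edgeR adjusted p = 3.60e-05), VEGFA from 50.7 to 71.4 CPM and EIF4EBP1, a translation repressor that mTORC1 inactivates, from 94.4 to 122 CPM. Without the 300 nM library 4 of the 5 were still called and without the 0 nM library 3, in both cases STC2, VEGFA and EIF4EBP1 among them. Limma on FPKM called 2, STC2 and EIF4EBP1, and the fit with the untreated library as a sixth step called 0. At 42 h 4 were higher and ADM2 lower, against 19.9% and 17.8% of all genes. SESN3, a relative of SESN2, was at 566 against 95.7 ± 26.8 CPM (2.80 ± 0.32 log2, edgeR adjusted p = 1.26e-16), GDF15, a stress hormone, at 3.01 against 0.886 ± 0.135 CPM, and DDIT4L, a relative of DDIT4, at 6.59 against 2.75 ± 0.62 CPM. ADM2 was at 4.51 against 11.5 ± 0.5 CPM.

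**Figure D4:**
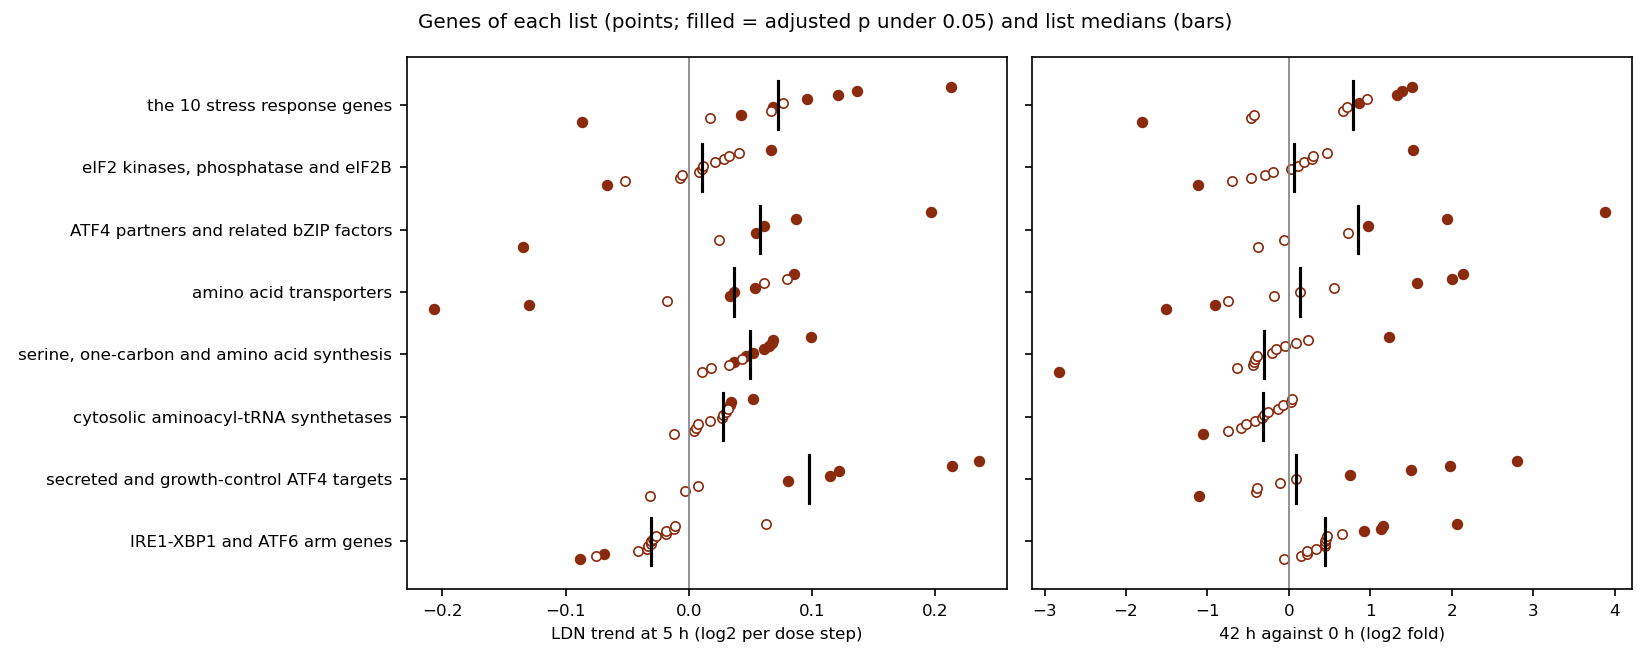
Estimates for the genes of each list (points, filled where the edgeR adjusted p is under 0.05) with list medians (bars), the LDN trend in log2 per dose step on the left and 42 h against 0 h in log2 fold on the right. Most serine, one-carbon and amino acid synthesis genes lie to the right of 0 with LDN (8 of 12 called in edgeR, 0 in limma on FPKM, 1 with the untreated library as a sixth step) and to the left of it at 42 h (1 called lower, 1 higher).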

How the data were processed

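RNA-seq of 7 time-series and 6 dose-response libraries was used. Per the study's methods, the authors trimmed the reads, mapped them with STAR 2.7.8a to GRCh38 and estimated counts with RSEM 1.3.3. The release of the annotation is not given in the sources used here. The deposited tables hold RSEM expected counts, not scaled for depth, and FPKM values that the authors normalized for length and depth. Of 61546 features, the 5 that are not human were left out of the tests.

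Expected counts were rounded to whole numbers and tested in edgeR 4.0.16 (quasi-likelihood, TMM factors, mean of at least 1 CPM, Benjamini-Hochberg adjustment at 0.05 over all genes). The LDN trend used the 5 libraries with BMP4, and the time trend and each time against 0 h used the 7 time-series libraries. CPM on the library total are printed, and 95% intervals (exact, and counting error only) came from the counts. A count of 0 would allow 3 counts, 0.0421 to 0.192 CPM by library. Alternatives were RLE factors, library totals, DESeq2 1.42.0, limma 3.58.1 on log2(FPKM + 0.1), no filter, a filter of 2.5 CPM, SMAD4 levels or the order of times as covariate, the untreated library as a sixth step, and leaving out each library.

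Named genes were the members, at most 3 genes a direction and list with the lowest p among those called with LDN or at 42 h, and each member's closest profile. Members and lists were chosen with earlier results of these data known. On simulated counts with 200 changed genes (total log2 change of 1), the fits recovered 95.5% (LDN trend, 14818 genes), 100% (time trend, 15890 genes) and 96% (42 h, 15910 genes). False calls numbered 8, 11 and 10. The simulation gave every gene the same assumed scatter, not one estimated from these data, and left genes of low level unchanged. These shares therefore check the fits and do not give their power in these data. No library was left out. A result for 1 further listed gene is not reported here.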

Additional observations from a re-analysis of the deposited data

How the results depend on the processing

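No dose and no time after 0 h was repeated, so each test rests on scatter about a line or on the 0 h pair, and depth limits DDIT3 most. No paired analysis was possible because the groups compared share no more than 1 replicate number. The 6 members called higher with LDN became 2 with limma on FPKM, 0 with the untreated library as a sixth step, and 1 to 6 when 1 library was left out (1 without the 300 nM library). The 1 member called lower became 0 with DESeq2 and with limma, and 0 to 1 with 1 library left out. Over all genes, the 1556 called higher with LDN became 415 with limma, 1001 with the sixth step and 874 to 1423 with 1 library left out, and the 1624 called lower became 692 with limma and 1104 to 1551 with 1 library left out. Over the hours, the 6 members called higher became 2 with library totals, 2 with limma and 1 to 6 with 1 library left out, and all genes went from 3072 higher and 2793 lower to 1872 to 3436 and 1387 to 3166. At 20 h the 1 member called higher became 0 with limma. At 28 h the 3 became 1 with DESeq2, library totals, limma or no filter, each time without CHAC1 and DDIT4. At 42 h the 4 became 2 with limma, and 3173 genes higher became 1794 with limma, while library totals gave 2415 higher and 3963 lower against 3173 and 2851 with TMM.

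Signs turned for values that were not called, apart from DDIT4 with LDN. The DDIT4 slope ran from -0.00777 (without the 300 nM library) to 0.199 with 1 library left out, and that of PHGDH was -0.00252 with limma and -0.0505 with the sixth step. The CHAC1 slope per hour was -0.00431 with library totals, -0.0081 with limma and -0.0105 to 0.0226 with 1 library left out, below 0 without 0 h replicate 1 or 28 h. That of VLDLR was -0.00437 with library totals, -0.00199 with limma and -0.00548 to 0.0193 with 1 library left out, below 0 without 0 h replicate 2, 4, 20 or 28 h. At 4 h ASNS was 0.0208 with library totals and 0.04996 with limma, and at 20 h TRIB3 was 0.0183 with limma. Signs also turned with the 0 h library used. At 4 h ATF4 ran from -0.40 to 0.09, PHGDH from -0.45 to 0.11 and ASNS from -0.23 to 0.13. TRIB3 ran from -0.05 to 0.84 there and DDIT4 from -0.01 to 0.78. At 12 h ATF4 ran from -0.11 to 0.38, PHGDH from -0.22 to 0.34 and CHAC1 from -0.12 to 0.27. DDIT4 ran from -0.04 to 0.75 there and VLDLR from -0.22 to 0.01. At 20 h TRIB3 ran from -0.42 to 0.48 and DDIT4 from -0.17 to 0.63. The cause of these differences was not tested.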

Other observations

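The other arms of the unfolded protein response, run by IRE1 with XBP1 and by ATF6, were measured by 15 genes. With LDN at 5 h, 0 rose in the edgeR test (0 also in DESeq2, in limma and at an unadjusted p under 0.05) and 2 fell, a share near the 10.9% of all genes that fell. At an unadjusted p under 0.05 in the edgeR test, 8 of the 15 fell, where 2496 of all 14907 genes did. HSPA5, the main chaperone of the endoplasmic reticulum, went from 903 CPM at 0 nM through 894, 843 and 808 to 739.8 CPM at 300 nM, against 748 CPM in untreated cells (-0.07 ± 0.01 log2 per step, edgeR adjusted p = 0.000389). DNAJC3, an inhibitor of PERK, went from 61.5 to 46.9 CPM (-0.09 ± 0.01, edgeR adjusted p = 0.000648). Both were called without the 300 nM library as well, and HSPA5 was not called with the untreated library as a sixth step. The number called lower was 7 without the 0 nM library, 7 with scaling on library totals and 6 with the 2.5 CPM filter. At 42 h 4 of the 15 were higher and 0 lower (0 also in DESeq2, in limma and at an unadjusted p under 0.05), where 19.9% of all genes were higher and 17.8% lower. HERPUD1, a factor of protein disposal from the endoplasmic reticulum, was at 42.5 against 12.0 ± 1.3 CPM (2.06 ± 0.30 log2, edgeR adjusted p = 6.90e-11), DNAJB9 at 19.0 against 10.1 ± 0.7 CPM and XBP1 at 188 against 101 ± 24 CPM. Limma did not call DNAJB9.

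LRP8, which shares the ligand reelin with VLDLR, rose with LDN from 108 to 119 CPM (0.04 ± 0.01 log2 per step, edgeR adjusted p = 0.0275). The LRP8 call was lost without the 0, 100 or 300 nM library, in DESeq2 and in limma. At 42 h LRP8 was at 56.6 against 142 ± 4 CPM (-1.09 ± 0.35 log2, edgeR adjusted p = 0.00710), a call lost in limma, and LRP2 (megalin), a further receptor, was at 83.5 against 4.44 ± 0.39 CPM (4.47 ± 0.31 log2, edgeR adjusted p = 5.29e-44).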
